A study of Mus musculus with 24 samples.

Results

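The replication-dependent histone genes were taken as the 66 protein-coding genes of the deposited annotation whose symbol begins with Hist1h, Hist2h, Hist3h or Hist4h, out of 48709 genes in the count table and 22018 protein-coding genes. They comprised 6 genes for linker histone H1, 19 for H2A, 16 for H2B, 12 for H3 and 13 for H4. RNA was sequenced from cerebral cortex and blood of C57BL/6J mouse pups whose dams breathed either filtered air (control) or re-aerosolized nano-size particulate matter (nPM), from gestational day 2 until birth, for 5 hours per day on 3 days per week. Each tissue had 12 libraries, made up of 3 female and 3 male control pups and 3 female and 3 male nPM pups. The labels give a pup age of 3 to 5 days and a concentration of 300 mg per cubic metre; the study's methods name another C57BL/6 substrain and a unit of micrograms. By the study's methods, the 3 pups of a sex and exposure came from separate litters, and both tissues were taken from the same pups. The labels do not say which libraries share a pup or a litter, so pups of opposite sex may be litter mates, and the tests treat all libraries as independent.

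Histones are the proteins that DNA is wound around. H2A, H2B, H3 and H4 form the nucleosome core, and H1 binds the linker DNA between cores. Replication-dependent histone genes are transcribed mainly in S phase, when newly copied DNA has to be packaged, and most of their mRNAs end in a conserved stem-loop that is bound by SLBP in place of a poly(A) tail. Some members can also be read through to a polyadenylation signal in cells that have left the cell cycle, which has been described for Hist1h1c and Hist1h2bc among others. Neonatal cortex still holds dividing progenitor cells, and neonatal blood holds young red cells along with some of their precursors. The libraries were made from total RNA after ribosomal RNA depletion, without selection for poly(A) tails.

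The genes lay on 4 chromosomes of GRCm38. Chromosome 13 held 53 of them, in a block of 22 genes at chr13:21715763-22043676, a block of 30 genes at chr13:23531050-23934851, and Hist1h2al alone at chr13:51202688-51203065. Chromosome 3 held 10 (chr3:96219865-96270132), chromosome 11 held Hist3h2ba and Hist3h2a (chr11:58948920-58956830), and chromosome 6 held Hist4h4 (chr6:136801553-136804415). All 6 H1 genes were on chromosome 13, and the H4 genes were spread over chromosomes 13 (11 genes), 3 (1 gene) and 6 (1 gene). There were 12 neighbouring H2A and H2B pairs that faced away from each other with 235 to 305 bases between their starts, among them Hist1h2ae and Hist1h2bg (286 bases), Hist1h2ac and Hist1h2bc (274 bases) and Hist1h2ak and Hist1h2bn (295 bases).

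The stem-loop was searched for in the annotated 3′ UTRs of Gencode M21 transcripts. Of 66 members, 52 had an annotated 3′ UTR, and 44 of these held the pattern of a 6-base stem, a 4-base loop and the complementary stem, 21 to 58 bases (median 31.5) after the stop codon. The pattern was present in 4 of 5 H1 genes with an annotated 3′ UTR, 11 of 13 H2A genes, 8 of 12 H2B genes, 9 of 10 H3 genes and 12 of 12 H4 genes. The stem-loops of members that the results turn on are shown because this element marks the class, with the sense strand written as DNA and the 4 loop bases in capitals.
Hist1h1c: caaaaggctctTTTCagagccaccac
Hist1h1e: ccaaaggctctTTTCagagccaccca
Hist1h4c: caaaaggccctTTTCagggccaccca
Hist1h4d: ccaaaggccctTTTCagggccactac
Hist1h2ab: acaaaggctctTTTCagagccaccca
Hist1h2bg: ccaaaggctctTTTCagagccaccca
Hist2h2ac: aaaaaggctctTTTTagagccaccaa
Hist3h2ba: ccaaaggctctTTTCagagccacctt

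The stem shown for the H1, H2A and H2B genes above with a TTTC loop (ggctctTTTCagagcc) was the most frequent form, found in 24 members, and the form of Hist1h4c and Hist1h4d (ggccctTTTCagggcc) was found in 7. Hist2h2ac alone had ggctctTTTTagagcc. No match was found in the annotated 3′ UTRs of Hist1h2bc and Hist2h2be, and Hist1h2bn, Hist1h4k, Hist1h3i and Hist2h2bb had no annotated 3′ UTR. For the 7 stem-loop members that are shown here and lie outside chromosome 3, the genes are at chr13:23738808-23740367 (Hist1h1c), chr13:23621755-23622502 (Hist1h1e, minus strand), chr13:23698060-23698454 (Hist1h4c, minus strand), chr13:23581598-23581990 (Hist1h4d), chr13:23751126-23751598 (Hist1h2ab), chr13:23571408-23571884 (Hist1h2bg) and chr11:58948920-58949533 (Hist3h2ba), and Hist2h2ac is at chr3:96220361-96220880 on the minus strand.

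Promoters from RefSeq (GRCm38.p6), each 300 bases long and spanning the gene's start, matched 60 of the 66 members. Those of Hist1h1c, the member with the largest share of histone counts in blood, and Hist1h2bg, the H2B member with the smallest p in the blood comparison, are shown with the motif matches on either strand in capitals.
Hist1h1c (chr13:23738557-23738856, plus strand): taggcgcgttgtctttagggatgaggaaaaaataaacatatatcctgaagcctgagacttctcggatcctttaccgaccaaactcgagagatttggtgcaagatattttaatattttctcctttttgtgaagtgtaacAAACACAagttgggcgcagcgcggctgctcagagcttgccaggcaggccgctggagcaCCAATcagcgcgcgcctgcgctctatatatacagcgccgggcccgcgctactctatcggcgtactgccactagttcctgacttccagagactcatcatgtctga
Hist1h2bg (chr13:23571150-23571449, plus strand): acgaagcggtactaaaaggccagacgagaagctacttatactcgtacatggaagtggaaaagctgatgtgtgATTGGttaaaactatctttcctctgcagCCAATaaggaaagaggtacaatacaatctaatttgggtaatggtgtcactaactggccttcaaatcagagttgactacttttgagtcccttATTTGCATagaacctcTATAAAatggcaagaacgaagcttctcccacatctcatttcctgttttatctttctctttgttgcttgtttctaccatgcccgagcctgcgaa

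The capitals mark AAACACA (the H1 box), CCAAT (also written ATTGG on the other strand), ATTTGCAT (the octamer) and TATAAA (the TATA box). CCAAT was present in 85% of the 60 histone promoters against 37.8% of all 27025 promoters, in every H1, H2A, H2B and H3 promoter and in 3 of 12 H4 promoters. TATAAA was present in 58.3% against 14.1%. The octamer was present in 20% against 1.74%, in 7 of 18 H2A and 5 of 14 H2B promoters and in none of the other families. AAACACA was present in 13.3% against 7.25%, and in 5 of 6 H1 promoters. These are matches of letters within the windows, and binding was not measured.

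Sequencing depth was 22301409 to 33804371 counts per cortex library and 13595647 to 21895536 per blood library; the RNA integrity number (RIN) lay between 9.4 and 9.9 in cortex and between 7.5 and 9.3 in blood. The labelled tissues were borne out by their markers: the 10 neuronal markers summed to at least 5179 CPM (the count per 1000000 counts of its library) in each cortex library and the 10 erythroid markers to at least 695544 CPM in each of the 11 blood libraries compared. The blood library V2 (control female) stood apart; the study left out 1 blood sample for its count distribution. It held 22461 detected genes against 13254 to 17273 in the other 11, its share of globin counts was 50.1% against 66.2 to 76.8%, and its markers of tissues around the cortex summed to 2252 CPM against 17.9 to 42.7. Its 66 histone genes summed to 1714 CPM against 184 to 400, and over the 57 members with a count in every blood library its level was a median of 10.9 times the median of the others, against 9.25 times for all 9963 such genes. V2 was left out of the values below unless it is named, and each comparison was repeated with it.

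**Figure D1:**
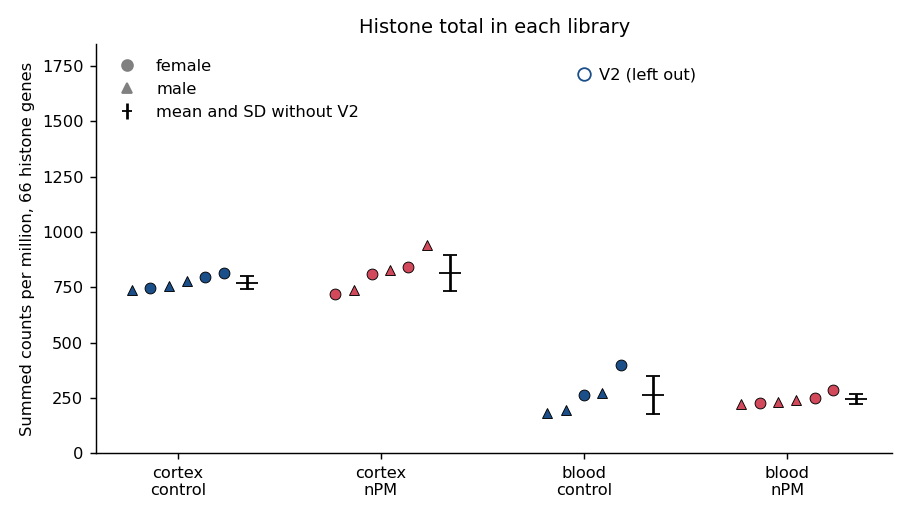
Summed CPM of the 66 histone genes in each library (points) with the group mean and SD, by tissue and exposure; the blood library V2, which was left out, is drawn apart. Control cortex lay at 739 to 815, nPM cortex at 718 to 943, control blood at 184 to 400 and nPM blood at 224 to 287.

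In control cortex the 66 genes summed to 772 ± 30.5 CPM (SD, n = 6), and in nPM cortex to 813 ± 81.0 CPM (n = 6). In control blood they summed to 264 ± 85.8 CPM (n = 5) and in nPM blood to 244 ± 23.2 CPM (n = 6). The plot of summed counts by library shows that nPM and control overlapped in both tissues. The highest cortex library was nPM male V13 (943 CPM) and the highest blood library was control female V4 (400 CPM). The control female blood libraries were at 262 and 400 CPM and the control males at 184, 198 and 274 CPM, so the sexes overlapped on this scale. On TMM-scaled CPM, the scale of the exposure tests, they did not. The females V17 and V4 were at 301 and 314, and the males V22, V6 and V8 at 248, 259 and 197.

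A few genes supplied much of the histone RNA. The top 10 members held 54.7% of the histone counts in control cortex and 62.1% in control blood. In control cortex Hist1h4d, an H4 gene, led with 11.6% of the histone counts, followed by Hist1h4c (7.25%), Hist1h1e (7.03%), Hist1h1c (6.13%) and Hist1h4h (5.35%). In control blood Hist1h1c led with 25.8%, followed by Hist1h2bc (7.61%), Hist1h4c (6.99%), Hist1h1e (4.94%) and Hist1h4d (3.69%).

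**Figure D2:**
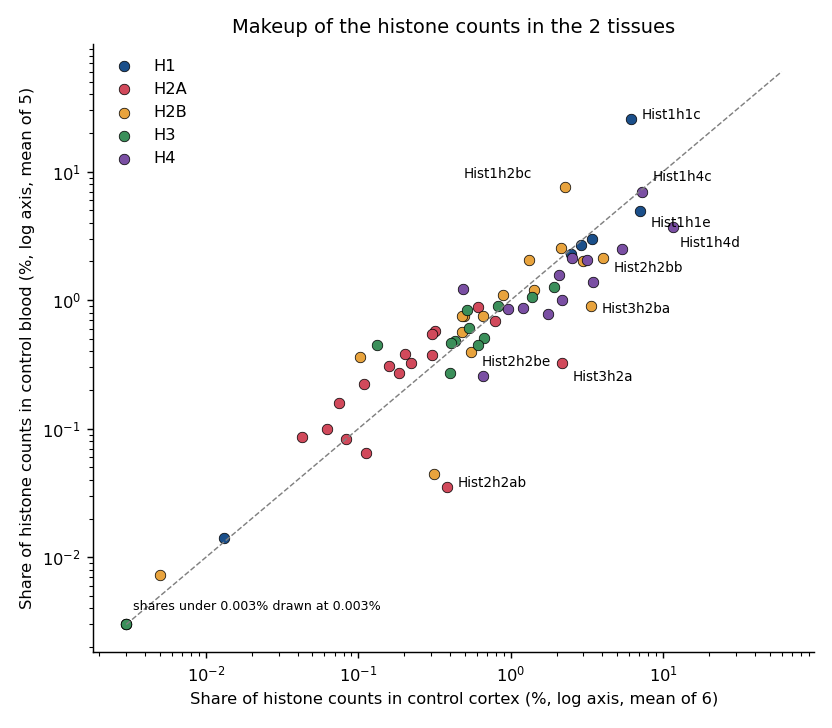
Share of the histone counts (percent, log axes) of each member in control cortex (mean of 6 libraries) against control blood (mean of 5), coloured by family. Hist1h1c (6.13% against 25.8%) and Hist1h2bc (2.27% against 7.61%) lie on the blood side of the diagonal, and Hist3h2a and Hist3h2ba on the cortex side.

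Per length, Hist1h4d was the highest member in control cortex, at 227 CPM per kilobase, and stood at 25.0 in control blood. Hist1h4c stood at 142 CPM per kilobase in control cortex and 45.4 in control blood, where it was the highest. Among H2B genes, Hist2h2bb led in cortex with 81.3 CPM per kilobase (14.5 in blood) and Hist1h2bc led in blood with 25.7 (23.8 in cortex). The H3 genes Hist1h3e and Hist1h3i led their family in cortex with 17.6 and 15.4 CPM per kilobase. The H2A genes Hist1h2ak and Hist2h2ac led theirs in cortex with 11.9 and 11.7. By the median over members, the families ranked H1 (32.5 CPM per kilobase), H4 (25.4), H2B (9.01), H3 (7.89) and H2A (3.10) in control cortex, and the order was H1 (11.2), H4 (5.69), H2B (3.85), H3 (2.90) and H2A (1.41) in control blood. The ranges of the families overlapped in both tissues. The deposited lengths of 30 members are multiples of 3, so many of the gene models hold little beyond the coding sequence, and levels per length carry that limit.

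The testis-expressed members were at or near the floor. Hist1h1t, the testis H1, had a mean of 0.101 CPM in control cortex and 0.034 CPM in control blood. Hist1h2ba was at 0.0379 and 0.0198 CPM, and Hist1h2aa had no count in any library. Hist2h2aa1 and Hist2h3c1 also had no count, and both overlap another gene model of the same strand.

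As a share of histone counts, control cortex was 42.6% H4, 22.0% H1, 21.5% H2B, 7.81% H3 and 6.13% H2A. Control blood was 38.7% H1, 25.4% H4, 23.2% H2B, 7.29% H3 and 5.43% H2A. The H4 share ranged from 39.9 to 44.9% in the control cortex libraries and from 20.9 to 28.4% in control blood, with no overlap. The H1 share ranged from 20.6 to 23.8% in control cortex and from 33.9 to 44.1% in control blood, again with no overlap. Without Hist1h1c and Hist1h2bc the H1 and H4 shares lay closer together. H1 was 17.3% in control cortex and 19.5% in control blood, and H4 was 46.5% and 38.0%. The other families lay further apart: H2B was 20.97% and 23.5%, H3 was 8.53% and 10.9%, and H2A was 6.69% and 8.17%. By chromosome, chromosome 13 supplied 82.5% of the histone counts in control cortex and 92.3% in control blood, and chromosome 11 supplied 5.52% and 1.23%. The nPM libraries had like shares in cortex (42.5% H4, 21.6% H1) and a mean of 45.0% H1 and 23.4% H4 in blood.

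Hist1h1c, which encodes the H1.2 linker histone, held 5.54 to 6.41% of the histone counts in the control cortex libraries and 20.4 to 33.1% in the control blood libraries. Its level in control blood ranged from 53.4 to 86.0 CPM with a median of 61.0, and in control cortex from 44.2 to 50.3 CPM with a median of 47.8. Hist1h2bc, an H2B gene, held 2.01 to 2.62% in control cortex and 5.61 to 10.9% in control blood. The cortex and blood libraries of either gene did not overlap in share. Their levels in CPM were of like size in both tissues, while most other members were several times lower in blood: Hist1h4d was at 89.2 ± 5.14 CPM in control cortex and 9.84 ± 3.75 CPM in control blood, and Hist1h1e at 54.2 ± 1.83 and 12.98 ± 3.995 CPM. Hist3h2a was at 16.8 ± 0.698 CPM in control cortex and 0.879 ± 0.525 CPM in control blood, and Hist4h4 at 16.8 ± 1.82 and 2.68 ± 1.06 CPM. V2, left out of these values, had a Hist1h1c share of 7.78% and levels of Hist1h1c and Hist1h2bc only 1.99 and 1.75 times the median of the other blood libraries.

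Whether the members stood higher in cortex or in blood depended on the scale. Globin transcripts took 71.3 to 76.8% of the control blood counts, and on plain CPM the median of the members was 1.63 higher in cortex on the log2 scale, on CPM without globin genes it was -0.31, and after TMM scaling (trimmed mean of M values, which sets the bulk of shared genes equal) it was -2.89. With TMM the median over all 17610 genes tested was itself 0.96 higher in cortex. Relative to that median gene, the members were 3.85 lower in cortex by their median, and all 59 tested members lay below the median gene.

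With edgeR and TMM, 56 of the 59 members tested were lower in control cortex than in control blood at an adjusted p under 0.05 and none was higher, against 79.4% of all genes tested that passed in either direction. In nPM libraries 55 of 57 were lower, against 79% of all genes that passed in either direction. Of all genes, 4777 of 17610 were called lower in control cortex and 5243 of 16743 in nPM cortex. On library totals without TMM, 1 member was called lower in control cortex, and without globin genes 28 were. The shares of all genes called lower on these scales are not given here, and the counts of all genes above hold for TMM only. The values in the next paragraph, and those said to be relative in the one after it, are log2 differences less the median of all genes tested.

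Hist1h1c had the lowest relative value in control cortex, at -5.91 (nPM -6.12), and Hist1h2bc stood at -5.57 (nPM -5.66). Hist1h2bp, a low member, stood at -5.58, Hist2h3c2 at -5.62, Hist1h4i at -5.18 and Hist1h2ag at -5.12. The members nearest to the median gene were Hist2h2ab (-0.46), Hist3h2a (-1.22), Hist3h2ba (-1.86) and Hist1h4d (-2.28). Hist2h2ab rests on 0.0950 CPM in control blood, and its sign turned with limma voom (0.10) and in the libraries of lane 3 (7.69). By family the medians were -3.31 for H4, -3.83 for H1, -4.09 for H3, -4.24 for H2B and -4.59 for H2A. By chromosome they were -1.54 for the 2 genes of chromosome 11, -2.84 for Hist4h4 on chromosome 6, -3.23 for chromosome 3 and -4.13 for chromosome 13. Members whose annotated transcript runs over 100 bases past the stem-loop had a median of -3.53 (20 genes), and those ending within 100 bases had -4.19 (21 genes).

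Among genes that act with histones, all 24 genes of S phase and DNA replication were lower in control cortex than in control blood on the TMM scale, 21 of them past the adjusted cutoff, with a median of -1.79 (-2.75 relative to the median gene). All 15 genes of G2 and mitosis were lower and past it, with a median of -3.96 (-4.91 relative). The 19 genes of histone mRNA synthesis, processing and decay went both ways on the TMM scale, with 10 higher and 5 lower past the cutoff, and their median of 0.39 turned to -0.57 relative to the median gene. Slbp, which encodes SLBP, stood at -0.99 on the TMM scale (-1.95 relative, edgeR adjusted p under the cutoff), and Lsm11, a subunit of the U7 particle that cleaves histone mRNA, at 5.08 (4.12 relative). Of 18 chaperone and deposition genes, 8 were higher and 8 lower past the cutoff, with a median of -0.25 (-1.20 relative). Of the 11 replacement variants, which are made outside S phase, 3 were higher and 8 lower, with a median of -0.56 (-1.51 relative); H2afy2 stood at 7.83 and H3f3a at -5.91 (6.87 and -6.86 relative). Summed on plain CPM, the S phase genes were higher in cortex, at 315 ± 11.1 CPM in control cortex and 123 ± 16.99 CPM in control blood, while the G2 and mitosis genes were lower there too, at 163 ± 24.9 and 440.5 ± 52.4 CPM. In bulk tissue, fewer cells that make a transcript and less of it per cell cannot be told apart.

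In the cortex, prenatal nPM exposure moved no histone gene past either cutoff in the main fit, which tested genes with a count in every library. A filter of at least 1 count in any library put some members past both cutoffs, as given in the section on processing. Of 59 members tested, 46 had a higher and 13 a lower estimate in nPM than in control, with a median log2 difference of 0.08 against -0.00 over all 20857 genes. The median was 0.05 without nPM male V13 and 0.13 without nPM female V9. No member had an unadjusted p under 0.005, where 0.614% of all genes did, and none passed an adjusted p of 0.05. The number with an unadjusted p under 0.05 was 2 of 59 by edgeR, where 5.67% of all genes passed. Limma voom and DESeq2 put 0 past either cutoff. In none of the 59 did the nPM and control libraries fail to overlap, against 0.197% of all genes.

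The 2 cortex members with the smallest p were Hist1h3i, an H3 gene, and Hist1h1d, an H1 gene. Hist1h3i ranged from 5.76 to 7.05 TMM-scaled CPM in control cortex with a median of 6.27, and from 5.93 to 8.68 in nPM cortex with a median of 7.64. Its log2 difference was 0.22 ± 0.10 (SE; edgeR adjusted p = 0.862). Hist1h1d ranged from 25.2 to 28.6 in control cortex with a median of 26.3 and from 24.5 to 33.1 in nPM cortex with a median of 29.6, a log2 difference of 0.15 ± 0.07 (edgeR adjusted p = 0.862). The exposed and control libraries of either gene overlapped, with the highest value in an exposed library.

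**Figure D3:**
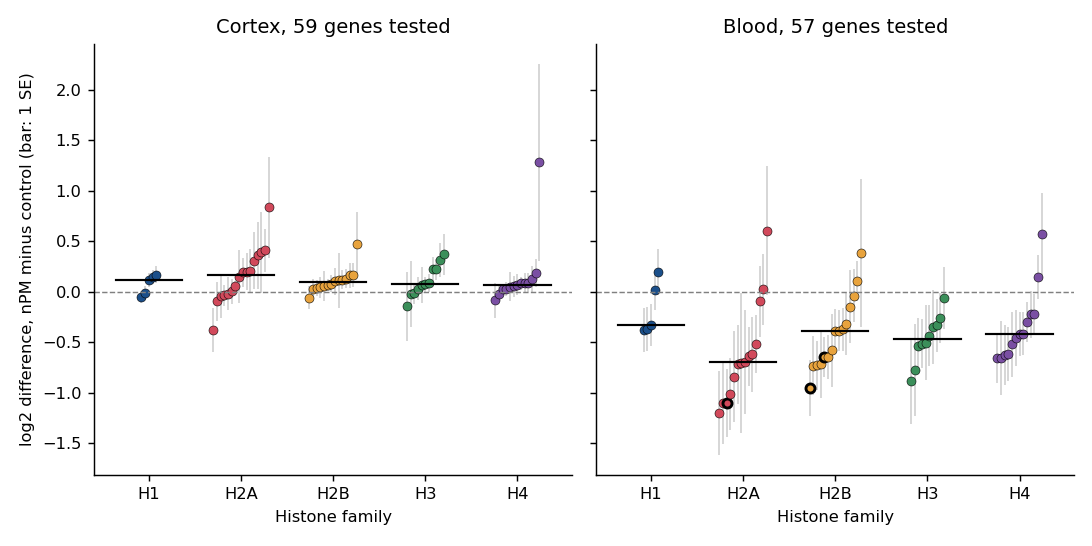
Log2 difference of nPM over control for each tested histone gene (points) by family in cortex (59 genes) and blood (57 genes), with the family median as a line. In cortex the family medians lie between 0.07 and 0.17, and in blood between -0.70 and -0.33.

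The family medians in cortex were 0.17 for H2A (11 of 16 higher), 0.12 for H1 (3 of 5), 0.09 for H2B (13 of 14), 0.07 for H3 (8 of 11) and 0.07 for H4 (11 of 13). By chromosome the median was 0.11 on chromosome 13 (39 of 48 higher) and -0.01 on chromosome 3 (4 of 8). The estimates of the abundant members were 0.02 for Hist1h4d, -0.02 for Hist1h4c, -0.05 for Hist1h1e and -0.01 for Hist1h1c. The members with reported polyadenylated transcripts had a median of 0.03 (4 of 6 higher).

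Dividing-cell genes in the cortex had estimates of the same sign. The 15 genes of G2 and mitosis were all higher in nPM (median 0.21), as were 17 of 24 S phase genes (median 0.05) and 9 of 10 progenitor markers (median 0.12), and none of these passed an unadjusted p of 0.005 by edgeR. The smallest p among them belonged to Rrm2, a subunit of ribonucleotide reductase (0.25 ± 0.08, edgeR adjusted p = 0.844), and to Cdk1, the mitotic kinase (0.35 ± 0.14, adjusted p = 0.848). The histone processing genes had a median of 0.03 (11 of 19 higher), the chaperones 0.03 (13 of 18) and the replacement variants 0.07 (11 of 11), with H3f3b the variant of smallest p (0.18 ± 0.06, edgeR adjusted p = 0.844). The 12 markers of tissues around the cortex had a median of 0.25 with 10 higher. Among them Nr2f2 (0.57 ± 0.08) and Gpr101 (1.08 ± 0.16) passed the adjusted cutoff (both edgeR adjusted p = 0.0441). The study had named both among its top cortex genes for nPM in these same data. That they passed is therefore not an independent result about surrounding tissue. These markers summed to 183 to 810 CPM in control cortex and 489 to 768 CPM in nPM cortex. Neuronal markers had a median of -0.04, erythroid -0.03, neutrophil -0.29, lymphocyte 0.10 and platelet 0.02. The part of any of these cells or tissues in the histone estimates was not tested.

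In blood the estimates pointed the other way, and again no histone gene passed an adjusted p of 0.05 in the main fit. Of 57 members tested, 49 had a lower and 8 a higher estimate in nPM than in control, with a median log2 difference of -0.46 against 0.00 over all 9977 genes. At an unadjusted p under 0.005, 3 members were lower and none higher, or 5.26% of the members tested, where 0.17% of all genes passed. At p under 0.05 there were 15 of 57 by edgeR, where 3.11% of all genes passed. At p under 0.005 limma voom put 4 and DESeq2 2, and neither put any past the adjusted cutoff. With V2 included, no member had p under 0.005. The count was also 0 without nPM female V1, without control female V4 or without control male V22, and it was 5 without control male V8.

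Hist1h2bg, an H2B gene, was at 4.21 and 5.37 TMM-scaled CPM in the control female libraries V17 and V4, and at 2.95, 2.33 and 1.57 in the control male libraries V22, V6 and V8. In nPM blood it ranged from 0.935 to 2.35 with a median of 1.71. The control females were above every exposed library, and the control males overlapped them. Its log2 difference was -0.95 ± 0.27 (edgeR adjusted p = 1.00), and it ranged from -1.10 to -0.78 with each library left out.

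Hist1h2ab, an H2A gene, was at 1.65, 2.43, 1.21, 1.06 and 1.255 in the control libraries V17, V4, V22, V6 and V8. In nPM blood it ranged from 0.404 to 1.65 with a median of 0.638, where female V18 reached the control range and the other 5 libraries lay below it. The log2 difference was -1.10 ± 0.34 (edgeR adjusted p = 1.00). Hist1h2bn, a second H2B gene, was at 6.71 and 7.77 in the control females and at 4.69, 5.30 and 3.30 in the control males V22, V6 and V8, against 2.99 to 4.80 with a median of 3.53 in nPM blood. The groups overlapped, and the log2 difference was -0.65 ± 0.20 (edgeR adjusted p = 1.00). With each library left out, Hist1h2ab and Hist1h2bn each lost an unadjusted edgeR p under 0.005 in 8 of 11 fits, and Hist1h2bg in 4. Of 8 other alternatives, Hist1h2ab and Hist1h2bn each lost it in 4 and Hist1h2bg in 1. Of their 50-base windows, 49.7% in Hist1h2bg, 58.0% in Hist1h2ab and 86.4% in Hist1h2bn occur in another gene as well, so their counts may be shared with close relatives.

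The nPM and control blood libraries did not overlap in 1 of the 57 members, against 0.221% of all genes. That member, Hist1h2af, was singled out after its values were seen. It was at 0.707 to 1.253 TMM-scaled CPM in control and 0.0468 to 0.656 in nPM blood, from 1 to 35 counts per library, with a log2 difference of -1.10 ± 0.41 (edgeR adjusted p = 1.00).

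**Figure D4:**
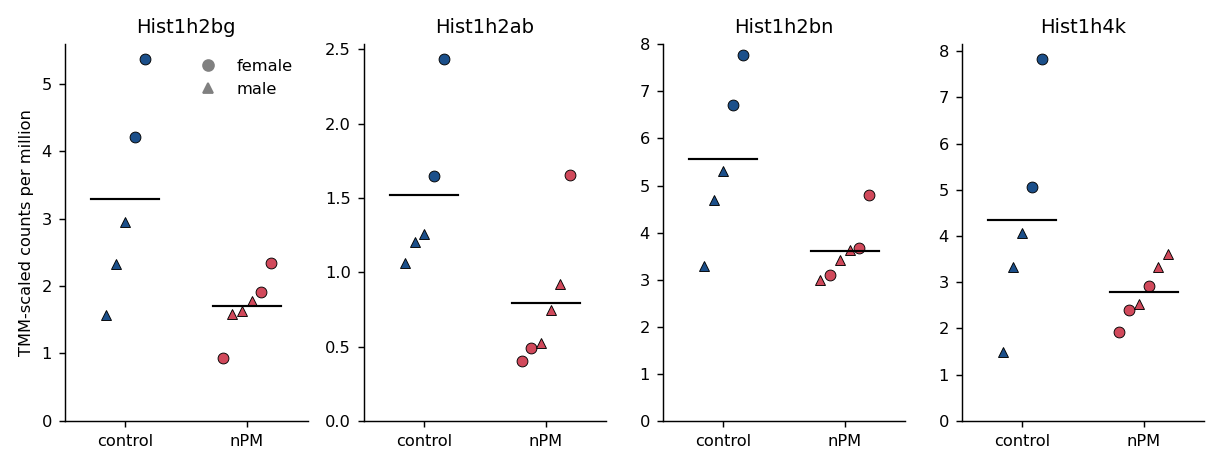
TMM-scaled CPM of Hist1h2bg, Hist1h2ab, Hist1h2bn and Hist1h4k in each blood library (points) by exposure and sex, without V2. The 2 control female libraries are the highest points of Hist1h2bg, Hist1h2bn and Hist1h4k, and V4 is the highest of all 4 genes.

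Every family had a negative median in blood. It was -0.70 for H2A (12 of 14 lower), -0.47 for H3 (10 of 10), -0.42 for H4 (11 of 13), -0.39 for H2B (13 of 15) and -0.33 for H1 (3 of 5). By chromosome it was -0.52 on chromosome 13 (42 of 48 lower), -0.42 on chromosome 3 (5 of 6), -0.22 for Hist4h4 on chromosome 6 and -0.01 for the pair on chromosome 11. The members with reported polyadenylated transcripts stood around 0, with a median of -0.01 (3 of 6 lower): Hist1h1c had a log2 difference of 0.19 ± 0.23 (edgeR adjusted p = 1.00) and Hist1h2bc of 0.11 ± 0.20 (edgeR adjusted p = 1.00). Hist1h1c ranged from 61.4 to 70.1 TMM-scaled CPM in control blood and from 54.2 to 129.5 in nPM blood, where female V3 was the highest. Summed without Hist1h1c and Hist1h2bc, the members were at 179 ± 72.8 CPM in control and 142 ± 15.8 CPM in nPM blood.

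Blood libraries were sequenced in lanes 1 and 3 and cortex libraries in lanes 2 and 3, with both exposures in each lane. Differences within a lane were raw differences of group means, without sex or RIN as covariates. They are thus another measure than the fitted median, which was -0.46 in blood. With V2 left out, V4 was the only control female in lane 1. Within lane 1 (4 nPM and 3 control blood libraries) the median difference of the members was -0.28 with 47 of 57 lower. Within lane 3 (2 and 2) it was -0.24 with 43 lower. In cortex it was 0.06 in lane 2 (42 of 59 higher) and 0.10 in lane 3 (43 higher). With lane as a covariate, 1 blood member passed an unadjusted p of 0.005.

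The genes that act with histones had small differences in blood, and none passed an unadjusted p of 0.005 by edgeR. The S phase genes had a median of -0.15 (15 of 22 lower), G2 and mitosis -0.06 (11 of 15), histone mRNA processing -0.07 (10 of 18), chaperones -0.12 (14 of 18) and replacement variants -0.14 (6 of 9). The smallest p values were those of Mcm7, a subunit of the replicative helicase (-0.42 ± 0.22, edgeR adjusted p = 1.00), Cdk1 (-0.53 ± 0.25) and H2afz (-0.37 ± 0.17), with adjusted p rounding to 1.00 for either. The summed S phase genes were at 110 to 151 CPM in control blood, where V4 was the highest, and at 108 to 137 CPM in nPM blood. Lymphocyte markers had a median of -0.28 (8 of 9 lower), with sums of 22.0 to 48.3 CPM in control and 10.1 to 45.4 CPM in nPM. Platelet markers had a median of 0.23 (7 of 8 higher), with sums of 245 to 425 and 278 to 680 CPM. Erythroid and neutrophil markers had medians of -0.00 and 0.04, the few detected progenitor and neuronal markers 0.17 and -0.28, and the markers of tissues around the cortex -0.19. Their part in the histone estimates was not tested.

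The sexes were then compared. In female blood (3 nPM, 2 control libraries) 47 of 58 members had a lower estimate, with a median of -0.69. An unadjusted p under 0.005 was reached by 4 members, all lower, against 0.699% of all genes, and none passed an adjusted p of 0.05. By edgeR 18 of 58 had p under 0.05, against 8.04% of all genes. In male blood (3 and 3) 35 of 58 were lower with a median of -0.08, and none reached p under 0.005, against 0.33% of all genes. By edgeR 2 of 58 had p under 0.05, against 3.86% of all genes. The male median moved with the fit: without the RIN covariate it was -0.25 with 45 of 58 lower, without control male V8 it was -0.38 and without control male V22 it was 0.06. The exposure-by-sex interaction, which tests the difference between these effects, had a positive estimate for 43 of 57 members (median 0.55 against 0.09 over all genes), meaning a higher log2 difference in males. By edgeR 1 member had an interaction p under 0.005, against 0.902% of all genes, and none passed the adjusted cutoff. In these sex comparisons of blood, limma voom and DESeq2 also put 0 past the adjusted cutoff.

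That member was Hist1h4k, an H4 gene. It was at 5.06 and 7.84 TMM-scaled CPM in the control females V17 and V4 and at 2.93, 2.40 and 1.92 in the nPM females V1, V18 and V3. In males it was at 4.07, 3.32 and 1.49 in control and 3.62, 3.32 and 2.53 in nPM. The female groups did not overlap, and the male groups did. The log2 difference was -1.47 ± 0.32 in females (edgeR adjusted p = 0.299) and 0.11 ± 0.43 in males (edgeR adjusted p = 1.00), and the interaction was 1.71 ± 0.49 (edgeR adjusted p = 0.452). Without V4 the female difference was -1.24 and the interaction 1.43, neither past p of 0.005. Of the 50-base windows of Hist1h4k, 71.5% occur in another gene.

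The other 3 members past p of 0.005 in females were Hist2h2ac, Hist1h2bg and Hist1h3b. Hist2h2ac, an H2A gene, was at 1.82 and 3.04 in the control females and 0.807, 0.746 and 0.689 in the nPM females V1, V18 and V3, with a difference of -1.72 ± 0.42 (edgeR adjusted p = 0.498), and in males the nPM library V21 (1.94) was above the controls. Hist1h2bg differed by -1.48 ± 0.38 (edgeR adjusted p = 0.54). Hist1h3b, an H3 gene, was at 1.82 and 2.18 in the control females and 0.908, 0.640 and 0.344 in the nPM females, with a difference of -1.80 ± 0.47 (edgeR adjusted p = 0.54). All 4 members separated the female groups, which hold 2 control libraries after V2 was left out. With V2 included, or without V1, no member had p under 0.005 in females. Without nPM female V18 there were 24 (20 past the adjusted cutoff). That fit held only 2 nPM and 2 control libraries, with exposure and RIN as terms. Its share of all genes is not given here, so the 24 cannot be set against a background.

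Several marker lists had estimates of 1 sign in female blood. All 10 erythroid markers had a higher estimate in nPM females (median 0.31), all 8 platelet markers did (median 0.89, with 1 at p under 0.005 by edgeR), and all 10 lymphocyte markers had a lower estimate (median -0.82). The S phase genes had a median of -0.09 in females, with 13 of 23 lower. The 6 members with reported polyadenylated transcripts went against the other members, with a median of 0.46 and 5 of 6 higher. In male blood the 9 neutrophil markers all had a higher estimate (median 0.61), the 8 platelet markers all had a lower one (median -0.26), and 8 of 9 lymphocyte markers were lower (median -0.37). The blood interaction was positive for all 9 lymphocyte (median 0.92) and all 9 neutrophil markers (0.75), and negative for all 8 platelet (-1.12) and all 10 erythroid markers (-0.66). The part of these cells in the histone estimates of either sex was not tested.

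In cortex the sexes had medians of 0.01 in females (31 of 61 members higher) and 0.13 in males (40 of 60). With each library left out, the female median ran from -0.04 (without nPM V20) to 0.07 (without nPM V9) and the male median from 0.02 (without nPM V13) to 0.21 (without nPM V23). No member had p under 0.005 in either, where 4.02% of all genes did in females and 0.318% in males. By edgeR 3 members in females and 0 in males had p under 0.05, against 15.4% and 4.51% of all genes. The cortex interaction had a median of 0.09 (35 of 59 positive), from -0.02 without V9 to 0.19 without V20 and 0.16 without the RIN covariate. No member was past p of 0.005, against 1.35% of all genes, and 0 were under 0.05 by edgeR, against 9.68%. Limma voom and DESeq2 put 0 members past either cutoff in these 3 cortex fits.

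The spread between libraries was larger in blood. Over members with a mean of at least 1 CPM, the median coefficient of variation was 15.5% in cortex (54 members) and 41.0% in blood (42 members). In cortex 6 members exceeded 50%, namely Hist1h2br, Hist1h4m, Hist2h3b, Hist1h2ao, Hist1h2bq and Hist2h3c2, and 4 of these belong to an inverted repeat on chromosome 13. In it, chr13:21806412-21837530, the genes Hist1h2bq, Hist1h2ao and Hist1h4m face their copies Hist1h4n, Hist1h2ap and Hist1h2br. The coding sequences of Hist1h4m and Hist1h4n (312 bases), Hist1h2ao and Hist1h2ap (393 bases) and Hist1h2bq and Hist1h2br (405 bases) are identical.

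**Figure D5:**
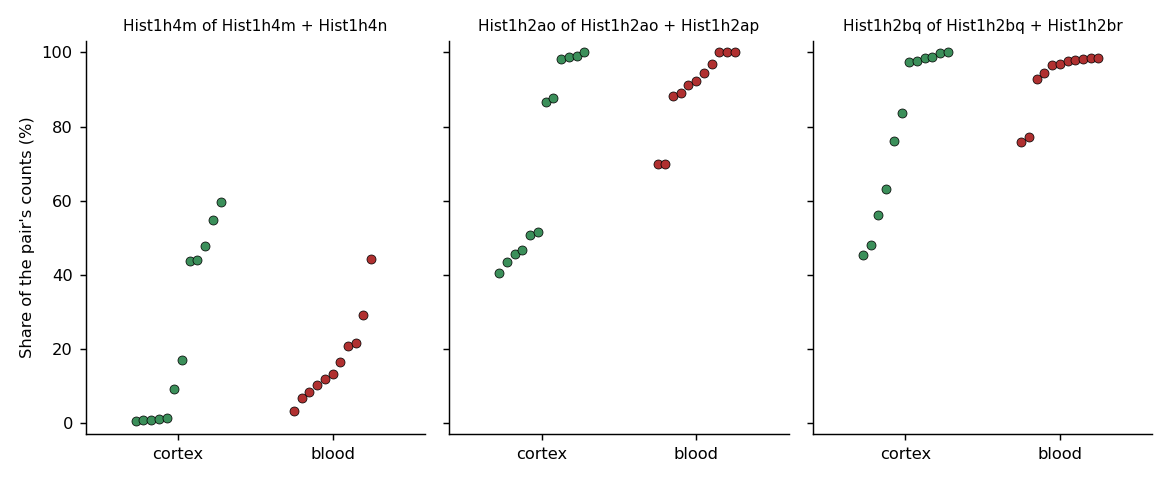
Percent of the counts of each identical pair assigned to the first copy (Hist1h4m, Hist1h2ao or Hist1h2bq) in each cortex and blood library (points), by tissue. In cortex, Hist1h4m took under 2% of its pair in 5 libraries, all 4 of lane 3 and V16 of lane 2, and 9.01 to 59.6% in the other 7.

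The split of counts between such copies varied by library. Hist1h4m took 0.595 to 1.16% of the counts of its pair in 5 cortex libraries, which were all 4 libraries of lane 3 and control male V16 of lane 2, and 9.01 to 59.6% in the other 7. In the same 5 libraries Hist1h2ao took 40.4 to 51.5% of its pair and Hist1h2bq 45.3 to 76.2%, against 45.7 to 100% and 83.6 to 100% in the other 7. Both the 5 and the other 7 included nPM and control libraries. The sums of the pairs also varied. In cortex Hist1h4m and Hist1h4n summed to 15.6 to 49.4 CPM, Hist1h2ao and Hist1h2ap to 1.24 to 7.49 CPM, and Hist1h2bq and Hist1h2br to 5.39 to 21.6 CPM. In blood the sums were 3.09 to 13.02, 0.54 to 2.51 and 1.67 to 5.80 CPM. How reads that match several places were counted is not given in the sources used here, so values of these 6 genes hold for their pairs only. Over all 66 members, 33 shared over 50% of their 50-base windows with another gene, 4 shared none (Hist1h1a, Hist1h1b, Hist1h1t and Hist2h2be), and 2 shared every window (Hist2h3c1 and Hist2h2aa2).

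In all, 24 members overlap another gene model, 5 on the same strand and 22 on the opposite strand, some on both. Hist3h2a overlaps Trim17 on the same strand, which bears on its level. Not tested in cortex were 7 members that lacked a count in at least 1 library (Hist1h1t, Hist1h2aa, Hist1h2ap, Hist1h2ba, Hist1h2br, Hist2h2aa1 and Hist2h3c1), and in blood these except Hist1h2br, with Hist1h2al, Hist2h2ab and Hist2h3c2 in addition, 9 in all.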

How the data were processed

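Per the labels and the study's methods, the authors depleted ribosomal RNA (RiboZero Gold), sequenced on an Illumina HiSeq, trimmed with Trimmomatic, checked with FastQC, aligned with HISAT2 to GRCm38 (mm10) and counted genes with featureCounts 1.5.0-p3 on Gencode M11. Versions of the other tools, strandedness and the treatment of reads with several matches are not given in the sources used here. The authors deposited raw read counts per gene with a gene map, and a table of RPKM values, which was not used. All values here were computed from the counts.

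CPM is the count per 1000000 counts of its library; TMM-scaled CPM uses edgeR's effective totals, and levels per length divide by the deposited gene length. The exposure tests were two-sided quasi-likelihood fits in edgeR 4.0.16 (R 4.3.3), with TMM and Benjamini-Hochberg adjustment over all genes of the fit, over genes that no library lacked, with sex and RIN as covariates (RIN alone within a sex). Tissues were compared with sex as covariate on genes kept by filterByExpr. The cutoffs were the unadjusted p of 0.005 that the study used and an adjusted p of 0.05. Library V2 was left out; the study left out 1 blood sample.

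Alternatives were limma voom (3.58.1), DESeq2 (1.42.0), other scalings, filters and covariates, V2 included and each library left out. Scaling without TMM or without globin genes, and leaving out either control female blood library, were added after the data had been seen. The members and gene lists were chosen with earlier results of these data known. Members were named where they were among the 2 highest per kilobase of their family, had p under 0.005 or 1 of the 2 smallest p in a tissue, had the largest tissue difference of their family in either direction, or have reported polyadenylated or testis transcripts; other genes came from the lists, by smallest p. On simulated counts with 200 genes changed 2-fold, the fit recovered 198 in cortex (21889 genes tested), 196 in blood (11805) and 198 between tissues (17442). Recovery was counted at an unadjusted edgeR p under 0.005. The simulation gave every gene the same dispersion and changed only genes above a minimum mean count. Apart from the changed genes, all its libraries had the same makeup, so the simulated tissues did not differ in globin. For this reason the simulation cannot test the scaling between tissues. It was not set to the spread of the members, whose median coefficient of variation in blood was 41.0% (42 members). It therefore does not show how many 2-fold histone changes the blood fit would find. Stem-loops were searched in Gencode M21 transcripts and motifs in RefSeq promoters. Within-lane differences used log2 TMM-scaled CPM plus 0.5.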

Additional observations from a re-analysis of the deposited data

Results flagged for a closer look

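In 112 groups of 5 or 6 libraries, 10 held a library that lay far from the rest by Dixon's test, where chance gives about 1 in 20 groups. Control female V4 was such a library in blood for Hist1h2ab (3.11 CPM, the other controls 0.809 to 1.44), Hist1h2ao (2.24 CPM, others 0.378 to 0.841) and Hist2h2ac (3.88 CPM, others 1.18 to 1.58). In nPM blood, female V3 stood apart for Hist1h2bc (31.7 CPM, others 18.4 to 21.9) and male V21 for Hist2h2ac (2.17 CPM, others 0.596 to 0.880). In control cortex, male V16 stood apart for Hist3h2a (18.1 CPM, others 16.1 to 16.8). The others were at a few counts: Hist1h1t in cortex nPM male V23 (0.194 CPM) and blood nPM male V7 (0.0518 CPM), and Hist1h2ba in cortex nPM male V15 (0.207 CPM) and blood control male V22 (0.0988 CPM).

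The estimated effect of nPM on Hist1h4k in blood differed between the sexes by 1.71 on the log2 scale at the unadjusted cutoff (edgeR interaction adjusted p = 0.452). Hist1h4k was 1 of 57 members tested, and 0.902% of all genes passed that cutoff. It no longer passed in 4 of 11 fits with a library left out and in 2 of 7 other alternatives. In the blood library V2, which entered the comparisons only as an alternative, the 66 histone genes summed to 1714 CPM, above the 184 to 400 CPM of the 5 other control blood libraries.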

How the results depend on the processing

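Counts of members past an unadjusted p of 0.005 changed with the filter, the samples and 1 covariate. With a filter of at least 1 count in any library they were 4 in cortex (3 past the adjusted cutoff), 6 in blood (1), 3 for the cortex interaction (3), 2 for the blood interaction, 2 in female cortex (2), 3 in male cortex (2) and 9 in female blood (3). That filter also tests members with no count in some libraries, such as Hist1h2ap and Hist1h2br in cortex, whose values hold for their pairs only. The share of all genes that passed in those fits is not given here. With V2 included the counts past p of 0.005 were 0 in blood, 0 for the blood interaction and 0 in female blood. Lane as a covariate gave 1 in blood, and no RIN covariate gave 0 for the blood interaction and 1 in male blood.

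With each library left out, the counts ranged from 0 to 1 in cortex and 0 to 5 in blood. For the interaction they ranged from 0 to 2 in cortex and 0 to 3 in blood. Within a sex they ranged from 0 to 3 in female cortex and 0 to 2 in male cortex (0 to 1 adjusted in both). In female blood they ranged from 0 (V1) to 24 (V18), and from 0 to 20 adjusted. The fit without V18 held 2 nPM and 2 control libraries, and its share of all genes is not given here. The medians ranged from 0.24 (V3) to 0.88 (V18) for the blood interaction, from -0.99 (V18) to -0.54 (V4) in female blood, from -0.38 (V8) to 0.063 (V22) in male blood, from 0.05 (V13) to 0.13 (V9) in cortex, from -0.02 (V9) to 0.19 (V20) for the cortex interaction, from -0.04 (V20) to 0.07 (V9) in female cortex, from 0.02 (V13) to 0.21 (V23) in male cortex and from -2.81 to -2.35 between nPM tissues.

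For control tissues the median was -2.54 with a filter on every library (-2.77 relative to all genes), -3.40 relative with V2 included, 1.63 without TMM (1 member lower) and -0.31 without globin genes (28 lower). For nPM tissues it was -2.42 with DESeq2, -2.42 with RLE scaling, -2.13 with the filter on every library (-2.35 relative), -2.40 with the filter on any library, 2.01 without TMM (2 lower) and 0.16 without globin genes (7 lower). The relative value of Hist2h2ab turned with limma voom (0.10 control, 0.22 nPM), in lane 3 (7.69 and 1.53) and with libraries left out (-0.89 to 0.61 and -0.67 to 0.79). The causes were not tested. No paired analysis was possible because no library number is shared between groups and blood and cortex of a pup are not matched in the labels. Blood is limited by its histone depth, 2505 to 8767 counts per library, against 18746 to 28593 in cortex.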
